A study of Mus musculus with 9 samples.

Results

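Genes whose level in transplanted Lewis lung carcinoma cells lay entirely to one side of dish culture, at either of 2 engraftment sites, were collected from a whole-transcript array series. A gene was taken when all 6 values from transplanted cells (3 from the lung and 3 from under the skin) were above, or all were below, the 3 values from dish culture. Of 19505 measured genes, 1987 met this rule. The 6 transplanted values stood above dish culture for 1067 genes (5.47% of all genes) and below it for 920 genes (4.72%). The genes were chosen by these same log2 values on all 9 arrays, so their distance from dish culture is given as a description and carries no test. The difference between the lung and subcutaneous means did not itself enter the rule, and it is the only quantity tested. The rule did use each lung and subcutaneous value, so which members could be called by site is not independent of it. The shares of members called by site are therefore descriptions as well.

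The cells were the 3LL line, a murine lung cancer line known as Lewis lung carcinoma (LLC), carrying GFP, and the strain is labelled C57/BL6. One group was kept as a culture of the line for 7 days, which the series text describes as a 2-dimensional monolayer. Cells of the remaining groups were grafted subcutaneously or within the lung and recovered by their GFP 7 days later. The series text calls the lungs of the lung group BLM lungs, an abbreviation that it does not spell out. All 9 samples came from 1 cell line, and cells of either transplanted group had passed through an isolation on GFP that the labels do not give for dish culture. Whether replicates are different animals or culture dishes is not stated in the labels. The p-values below therefore reflect variation among these arrays, part or all of which may be technical.

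A tumour cell moved from a dish into an animal meets host immune cells, interferons, extracellular matrix, limited nutrients and limited oxygen. Interferons act through cell-surface receptors and raise antiviral proteins and the MHC class I pathway, which presents peptides to CD8 T cells. Sterol and fatty acid synthesis are controlled by the SREBP factors, amino acid supply by ATF4, and entry into DNA replication by cyclins, CDKs and E2F.

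Values are log2 signals as deposited, so a difference of 1 is a 2-fold difference in signal. The 90th percentile of the negative control features, 7.20 to 7.73 over the 9 arrays, served as a guide to background. Where a gene was not well above background on any array of the dimmer side, "at least" marks a bound against that percentile. The mean of the lung and subcutaneous group means minus the dish mean is called the transplanted minus dish difference. Its median was 1.10 for the genes above dish culture, -0.81 for the genes below it, and -0.04 over all 19505 genes. It was at least 1 in size for 621 genes above and 299 below, and at least 2 for 117 above and 26 below. It was under 0.5 for 89 genes above and 145 below. The genes above dish culture therefore included more large differences than the genes below it.

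**Figure D1:**
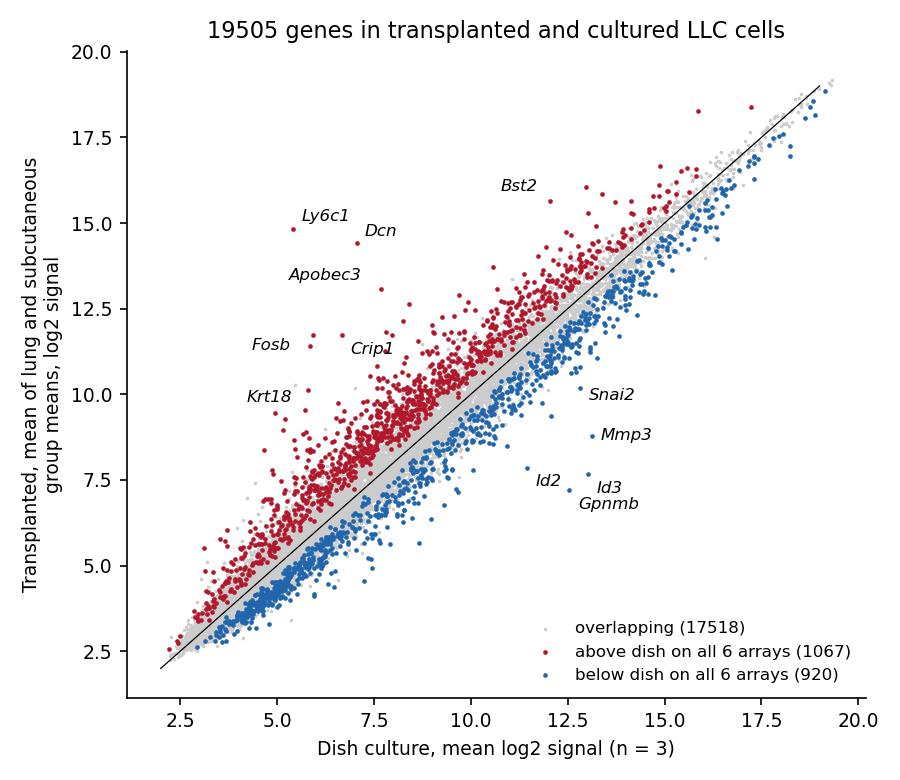
Mean log2 signal of each of 19505 genes in dish culture (x axis, n = 3 arrays) against the mean of the lung and subcutaneous group means (y axis); the line marks equal values. Red points are the 1067 genes with all 6 transplanted values above dish culture, blue points the 920 with all 6 below, and the 17518 grey genes overlap; red points reach farther from the line than blue points.

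Many members were dim. A total of 564 genes above dish culture and 417 below it exceeded the background guide on all 9 arrays, while 179 above and 359 below exceeded it on none. Among the 6667 genes over the guide on at least 3 arrays, 822 (12.3%) lay above dish culture and 524 (7.86%) below. The edge of the rule was narrow. Among genes over the guide on every array, Kif3c and Dguok were just inside on the upper side, with gaps of 0.00054 and 0.0005 between the nearest dish and transplanted values, and Fkbp2 (-0.0028) and Zfp758 (-0.00119) just outside. On the lower side Tmbim4 (0.0009) and Mrps17 (0.0021) were just inside, and Srsf1 (-0.00163) and Zfp607b (-0.0014) just outside. The gap was under 0.1 for 264 genes above and 311 below, and at least 1 for 102 above and 24 below.

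The balance between directions depended on how the arrays were scaled. Members above dish culture made up 53.7% of all members on the deposited values, 46.3% after quantile normalization (956 above, 1110 below) and 37.9% after centring each array on genes above background (771 above, 1264 below). The median difference over all genes was -0.02 under quantile normalization and -0.16 under centring. No member changed side under either scaling. Of the original members, 808 above and 759 below still met the rule after quantile normalization, and 722 above and 764 below after centring.

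RNA integrity numbers were 8.4 to 8.6 in dish culture, 7.5 to 8.6 under the skin and 7.9 to 8.3 in the lung. Signals of the bacterial hybridization controls differed by group, at 11.86 to 12.16 in dish culture, 12.73 to 12.96 under the skin and 10.95 to 11.58 in the lung, and their part in the differences was not tested. Lung replicate 3 stood apart from the other lung arrays. Mki67, a proliferation marker, read 14.34, 14.84 and 9.49 on lung replicates 1 to 3, and Scgb3a2, an airway secretory gene, read 5.55, 6.27 and 13.10. Without lung replicate 3 the rule held 1306 genes above and 1125 below dish culture. Leaving out an array can add genes to the rule but removes none.

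Antiviral and interferon-linked genes stood among the largest differences above dish culture. Apobec3, a cytidine deaminase that restricts retroviruses, read 7.76, 8.55 and 6.73 in dish culture, 13.12, 13.21 and 13.07 under the skin, and 13.02, 13.27 and 12.83 in the lung. The lung and subcutaneous values overlapped each other and lay at least 4.28 above every dish value, and the transplanted minus dish difference was 5.41. Lung minus subcutaneous was -0.09 (adjusted p = 0.899 by limma). Bst2 (tetherin), which holds budding virus at the cell surface, read 12.26, 12.18 and 11.71 in dish culture, 15.53, 15.57 and 15.66 under the skin, and 15.57, 15.94 and 15.54 in the lung. The lowest transplanted value was 3.27 above the highest dish value, and the lung minus subcutaneous difference was 0.10. In bulk samples such as these, fewer cells of a type and less RNA per cell cannot be told apart.

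Most listed interferon response genes did not rise above background on these arrays. Of 23 measured genes of an interferon response list, 4 lay above dish culture and 0 below (median difference 0.34), and 18 of the 23 were never above background. The 4 were Bst2, Gbp2 (0.80), Igtp (1.31) and Irgm1 (0.84). The last 3 encode interferon-induced GTPases. They were below background on all 9 arrays, and Irgm1 left the rule under centring. Further interferon-linked genes were chosen after their values were seen. Ifi30, a lysosomal thiol reductase of antigen processing, was higher by 1.92, Parp12 by 1.82 and Samd9l, an antiviral factor, by 3.24. Samd9l was lower in lung than in subcutaneous cells (-2.08, adjusted p = 0.00397).

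Genes of the Ly6 family, small GPI-anchored surface proteins, held the largest difference of all members. Ly6c1 read 6.27, 4.65 and 5.35 in dish culture, 17.60, 17.47 and 17.68 under the skin, and 11.46, 12.81 and 11.91 in the lung. Dish values were all below background, subcutaneous values were the highest, and lung values lay between without overlap, so that the transplanted cells stood at least 7.40 above dish culture (9.40 as measured). Lung was 5.52 ± 0.40 (SE) below subcutaneous (adjusted p = 1.38e-05). Ly6c2 read 5.60, 6.64 and 5.55, then 13.30, 14.39 and 14.33, then 9.03, 9.93 and 9.50 in the same order, a difference of at least 4.32. The order of the 3 groups was that of Ly6c1. Ly6c1 and Ly6c2 are near-identical copies, so how the signal divides between them is uncertain. Ly6e, a further interferon-inducible family member, read 15.84, 15.94 and 15.78 in dish culture, 18.47, 18.31 and 18.53 under the skin, and 18.41, 18.60 and 17.37 in the lung. Its lung minus subcutaneous difference was -0.31 (adjusted p = 0.543).

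**Figure D2:**
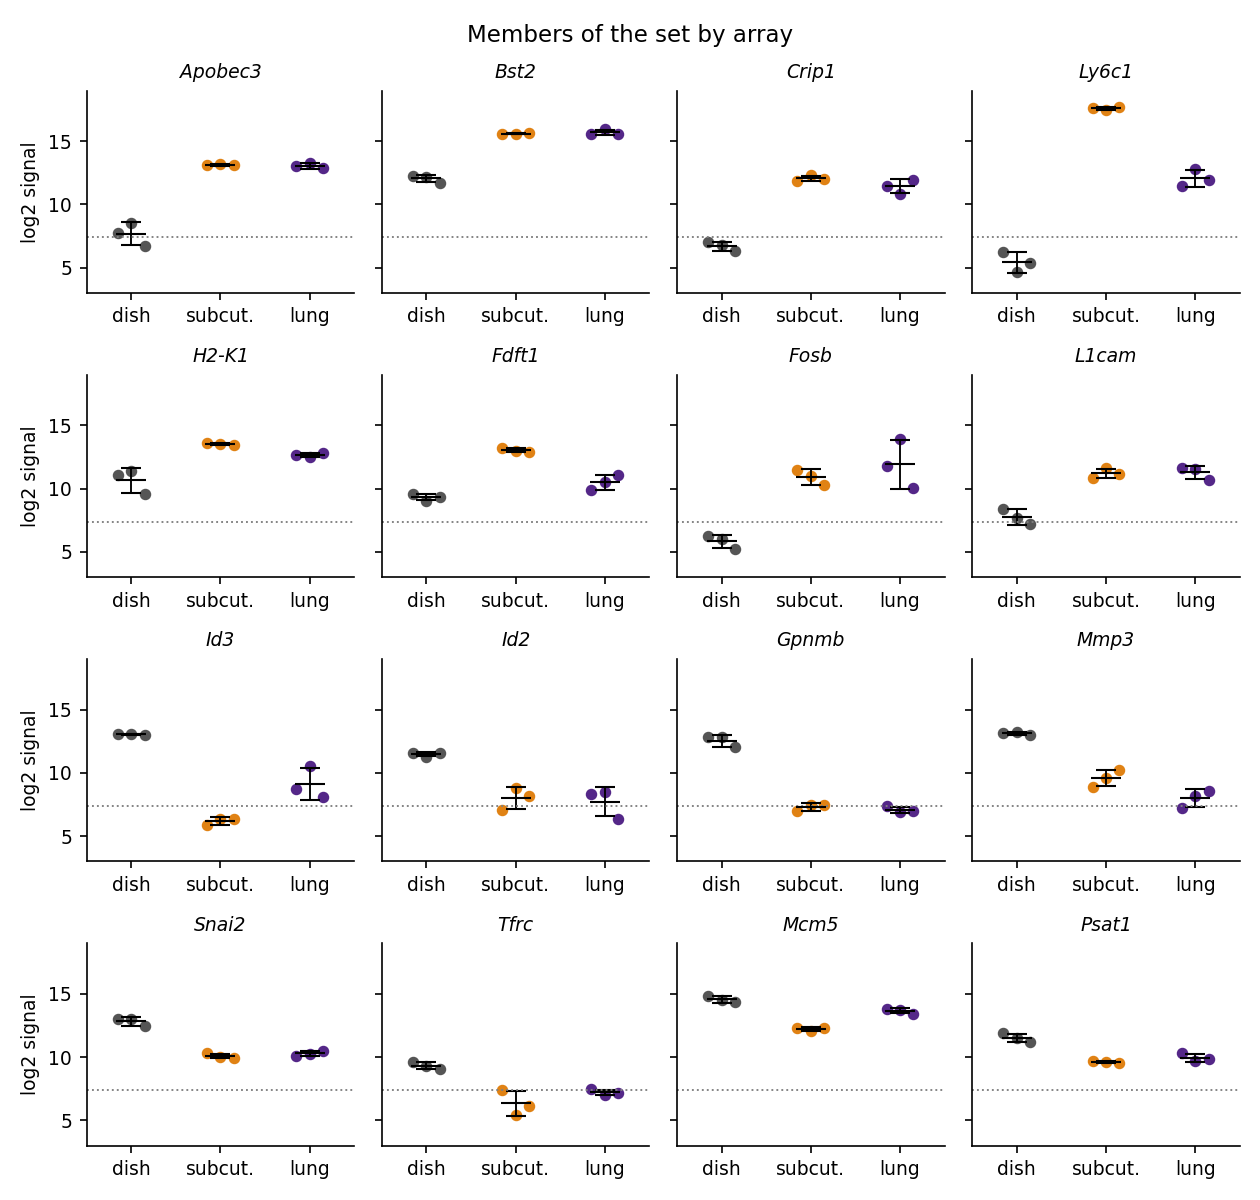
Log2 signal of 16 members on each of 9 arrays (points), by group, with bars for the mean ± SD of 3 arrays and a dotted line for the mean background guide. Apobec3 and Bst2 overlap between the transplanted groups, Ly6c1 and Fdft1 are highest under the skin, and Id3 is lowest under the skin.

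The MHC class I pathway held many genes above dish culture. Of 17 measured genes of the list, 9 lay above dish culture and 0 below, with a median difference of 1.65. H2-K1, a classical heavy chain, read 11.09, 11.36 and 9.55 in dish culture, 13.58, 13.51 and 13.45 under the skin, and 12.63, 12.50 and 12.78 in the lung. The groups did not overlap, and dish culture was more spread than either transplanted group. Lung minus subcutaneous was -0.88 and not called (adjusted p = 0.142 by limma). B2m, the light chain that every class I molecule needs, read 13.36, 13.22 and 12.46, then 15.76, 16.26 and 16.15, then 14.59, 14.52 and 14.45. It was highest under the skin (lung minus subcutaneous -1.54, adjusted p = 0.00273).

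Further heavy chains were H2-T23 (2.66 as measured, at least 0.74) and H2-D1 (1.90). H2-T23 encodes Qa-1, a ligand of NK cell receptors. H2-K1 and H2-D1 are close copies, so the share of each in the signal is uncertain. Proteins that make and carry the peptides were among the members too. Psmb8, a catalytic subunit of the immunoproteasome, was higher by 2.54, and the proteasome activators Psme1 and Psme2 by 1.75 and 1.11. Tap1, which moves peptides into the endoplasmic reticulum, was higher by 1.70, though it left the rule under quantile normalization. Erap1, which trims those peptides, was higher by 1.65. Of the 9 members, 3 were higher under the skin than in the lung (B2m, Tap1 at -1.79 and H2-D1 at -1.24), and the call of H2-D1 was lost without lung replicate 1. The list held 8 to 10 members under every scaling and with any 1 array left out. In contrast, 0 of 6 measured MHC class II genes met the rule.

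Promoters of these members were searched for known motifs in RefSeq sequence of build GRCm38.p6, in the 250 bases before the gene start. More motifs were searched, in this and other lists, than are given here. A match to NF-kB letters GGGNNTTCC on either strand was found in 2 of the 9 class I members, against 5.25% of all 15691 genes with a promoter sequence. Those letters were also found in 2 of 6 cholesterol list members with a sequence, and in 6.08% of promoters of genes above dish culture. A match to the core of an interferon-stimulated element, TTTC, any 2 bases and TTTC, on either strand was found in 2 others, against 3.03% of all. It was found in 3.39% of promoters of genes above dish culture. The windows show where the promoters of class I members hold these letters, on the strand of the gene, with the match in capitals. They lie at chr17:34000430-34000478 (- strand) for H2-K1, chr17:35262903-35262951 (+ strand) for H2-D1, chr17:36032796-36032845 (- strand) for H2-T23 and chr2:122147528-122147577 (+ strand) for B2m. The matches begin 111, 171, 124 and 139 bases before the start, in that order.
H2-K1: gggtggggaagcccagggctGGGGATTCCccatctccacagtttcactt
H2-D1: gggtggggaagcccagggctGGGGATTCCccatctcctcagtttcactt
H2-T23: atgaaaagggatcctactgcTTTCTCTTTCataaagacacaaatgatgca
B2m: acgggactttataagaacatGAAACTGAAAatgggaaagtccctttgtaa
H2-K1 and H2-D1 carry the same match, and in B2m the element reads on the opposite strand. A match describes letters in this window and does not show that a factor bound there.

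Genes of sterol synthesis stood above dish culture. All 19 measured genes of the cholesterol list had a positive difference, 10 lay above dish culture under the rule and 0 below, with a median of 1.68. Fdft1 (squalene synthase), the first step committed to sterols, read 9.54, 9.05 and 9.36 in dish culture, 13.23, 12.99 and 12.91 under the skin, and 9.89, 10.49 and 11.11 in the lung. Subcutaneous values were the highest and lung values sat just above dish culture without overlap. Lung was 2.55 below subcutaneous (adjusted p = 0.000285).

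The members ran along the pathway. Hmgcs1, which makes HMG-CoA, was higher by 1.85 as measured (at least 0.32). Pmvk (1.92), Mvd (1.82) and Fdps (2.31) carry mevalonate to farnesyl diphosphate. Sqle (1.99) forms squalene epoxide, and Nsdhl (2.10), Hsd17b7 (1.68) and Dhcr7 (2.49, at least 1.29) act later in the pathway. Stard4, which carries cholesterol within the cell, was higher by 1.12. The medians of lung minus dish and subcutaneous minus dish were 1.14 and 2.19, and these comparisons share the dish arrays. Of the 10 members, 7 were called higher under the skin. The calls of Fdft1, Nsdhl and Stard4 held with any 1 array left out, and those of Mvd and Pmvk were lost without lung replicate 1. Fdps was no longer called when dish replicate 2, subcutaneous replicate 1 or 2, or lung replicate 1 or 2 was omitted, and Dhcr7 when any 1 array other than lung replicate 3 was. Neither was called with lung and subcutaneous arrays only, nor Dhcr7 with a replicate block. After quantile normalization 7 genes of the list lay above dish culture, Hmgcs1, Nsdhl and Stard4 having left the rule, and after centring again 7, without Hmgcs1, Stard4 and Fdps.

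Of the 6 members of this list with a promoter sequence, 1 held the sterol element letters TCACNCCAC, which 1.01% of all promoters hold. It is shown because sterol regulation of this gene is classical. The window at chr13:119690194-119690242 (+ strand, GRCm38.p6, RefSeq) has its match, in capitals, 137 bases before the start.
Hmgcs1: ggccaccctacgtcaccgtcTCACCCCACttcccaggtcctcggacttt
CCAAT letters, searched on both strands, were found in 5 of those 6 promoters against 36.0% of all.

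Fatty acid synthesis followed the same direction. All 11 measured genes had a positive difference, and 6 lay above dish culture and 0 below (median 1.00). Scd1, which puts the double bond into stearate, read 9.98, 9.72 and 8.52 in dish culture, 12.31, 12.84 and 12.68 under the skin, and 10.30, 10.79 and 10.84 in the lung. Lung values lay between the other groups (lung minus subcutaneous -1.97, adjusted p = 0.00268). The elongases Elovl6 and Elovl5 were higher by 1.61 and 1.59, the desaturase Fads1 by 1.38, Acly, which makes cytosolic acetyl-CoA, by 1.23, and Acaca, which makes malonyl-CoA, by 1.00. Fads1 was also higher under the skin (-1.61) and left the rule under quantile normalization and centring.

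Immediate early genes, whose mRNAs appear within minutes of a stimulus, stood above dish culture in number. Of 24 measured, 10 lay above and 1 below, with a median difference of 1.08. Fosb, an AP-1 subunit, read 6.27, 6.0 and 5.26 in dish culture, 11.47, 11.01 and 10.27 under the skin, and 11.79, 13.93 and 10.03 in the lung. Dish values were below background, and the transplanted cells stood at least 3.99 above them. Jun, its partner, read 8.56, 8.04 and 7.41, then 10.52, 10.84 and 10.67, then 9.54, 10.81 and 9.34. The transplanted groups overlapped each other and neither overlapped dish culture.

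The other members of that list were Ier3 (2.55, at least 0.99), Dusp1 (2.30), Ier2 (2.28), Atf3 (1.94), Fos (1.45), Junb (1.41), Klf6 (1.16) and Fosl1 (0.63), the last leaving the rule under quantile normalization and centring. Dusp1 encodes a phosphatase that switches off MAP kinases, and Atf3 a stress transcription factor. Myc, a driver of growth, was the exception and lay below dish culture by 0.57 (difference -0.57). The list held 13 members above dish culture without lung replicate 3. Isolation on GFP was done in both transplanted groups and is not given for dish culture, so transplantation and isolation cannot be told apart.

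Signalling genes lay on both sides. Nfkbia, the inhibitor that NF-kB itself induces, read 10.44, 9.62 and 9.02 in dish culture, 12.82, 12.61 and 12.92 under the skin, and 13.35, 13.50 and 12.14 in the lung. All 6 transplanted values were above every dish value, and lung minus subcutaneous was 0.21. Of 15 measured NF-kB genes, 4 lay above dish culture and 0 below (median 0.79), the others being Nfkbib (1.55), Cd44 (1.22) and Traf1 (1.15, below background on all arrays). Cd44 left the rule under centring. Cxcl2, a neutrophil chemoattractant, stood 3.16 above dish culture as measured (at least 1.49). It was the only member above among 25 measured chemokines and cytokines, of which 1, Ccl20 (-1.48), lay below and 18 were never above background.

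Of 14 MAP kinase feedback genes, 5 lay above dish culture and 1 below (median 0.64). The EGF receptor ligand Ereg was higher by 1.66 as measured (at least 1.08), the ETS factor Etv4 by 1.62 and the receptor Epha2 by 0.78. Spry4 (1.23) and Spred1 (0.50), inhibitors of the pathway, left the rule under quantile normalization and centring. Dusp4, an ERK phosphatase, lay on the other side with 12.66, 12.25 and 11.72 in dish culture against 10.65, 11.09 and 10.52 under the skin and 10.72, 11.07 and 9.98 in the lung. The growth factor gene Pdgfa stood at least 1.48 above dish culture, and Tgfb1 1.87, the latter leaving the rule under both scalings.

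Integrins and matrix genes were counted as separate lists. Of 17 measured integrin and adhesion genes, 7 lay above dish culture and 1 below (median 0.38). Itga6, the laminin-binding alpha chain, read 12.49, 12.42 and 12.85 in dish culture, 15.33, 15.15 and 15.20 under the skin, and 14.14, 13.72 and 14.29 in the lung. The groups did not overlap, and lung was 1.18 below subcutaneous (adjusted p = 0.00598). L1cam, a neural adhesion molecule, read 8.43, 7.70 and 7.20, then 10.87, 11.60 and 11.17, then 11.64, 11.54 and 10.72. Its transplanted groups overlapped each other, with a difference from dish culture of 3.48.

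Itga5, the fibronectin receptor chain, was higher by 1.87, Itga3 by 1.70 and their shared partner Itgb1 by 0.80. Cd47, which signals to macrophages not to engulf the cell, was higher by 1.14, and the tetraspanin Cd9 by 1.11, the latter leaving the rule under centring. Itgb3 was lower (-0.81) but below background on all arrays, and it left the rule under quantile normalization. Of 22 measured collagen and matrix genes, 5 lay above and 0 below, and 12 were never above background. Nid1, which links laminin to collagen IV, read 11.80, 11.27 and 11.05 in dish culture, 13.67, 13.86 and 13.64 under the skin, and 13.39, 13.50 and 13.09 in the lung. Lamc1, a laminin chain, was higher by 2.18, and Sparc, a collagen-binding protein, by 1.27. Lama5 and Hspg2 (perlecan), outside the list and chosen after their values were seen, were higher by 3.73 (at least 0.96) and 2.76.

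Cytoskeletal members included Vcl (vinculin, 2.25), the small GTPases Rhob (1.88) and Rhoa (0.57), Msn (moesin, 1.40) and Arpc5 (0.86), a subunit of the actin nucleator. Rhoa left the rule under centring and Arpc5 under both scalings. Svil (supervillin), which binds actin to membranes, was among the largest differences at 3.76. The keratin pair of simple epithelia lay above dish culture too. Krt18 read 5.98, 5.91 and 5.27 in dish culture, 10.99, 11.03 and 11.06 under the skin, and 8.24, 7.23 and 8.66 in the lung, at least 2.11 above dish culture and 2.98 lower in lung than under the skin (adjusted p = 0.000236). Its partner Krt8 was higher by 1.29. They were the only 2 members among 15 measured epithelial genes, of which 12 were never above background, Cdh1 and Epcam among them. Of the 15, 7 had a positive difference and 8 a negative one (median -0.01). Other members with large differences were Crip1 (a LIM protein, 5.05 as measured and at least 4.31), Slc14a1 (a urea transporter, 4.24), Cdk2ap2 (4.02) and Slc39a10 (a zinc importer, 3.87).

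**Figure D3:**
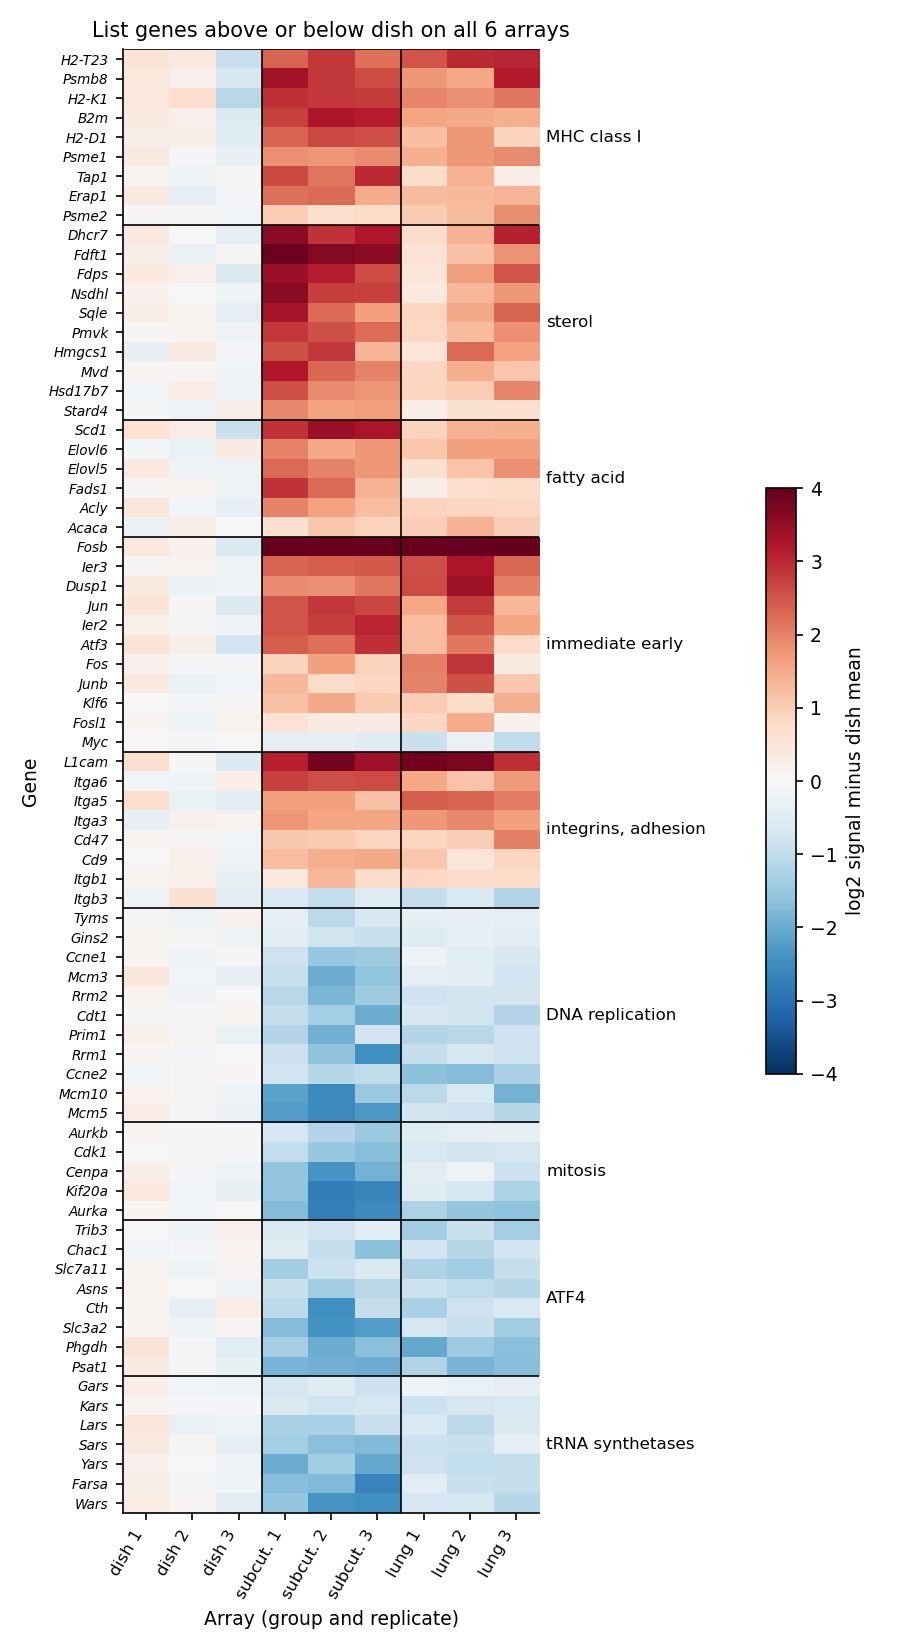
Log2 signal minus the dish mean for the members of 9 gene lists (rows) on each of 9 arrays (columns, by group), with colours limited to 4 either side of 0. The class I, sterol, fatty acid, immediate early and adhesion genes are mostly above the dish mean in both transplanted groups, and the replication, mitosis, ATF4 and tRNA synthetase genes below it.

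Below dish culture the largest differences among members bright in dish culture were those of Id3 (-5.37), Gpnmb (-5.35), Mmp3 (-4.34) and Id2 (-3.59). Id3, a dominant-negative helix-loop-helix protein induced by BMP signals, read 13.09, 13.04 and 12.97 in dish culture, 5.86, 6.38 and 6.39 under the skin, and 8.70, 10.52 and 8.12 in the lung. It was below background on every subcutaneous array. Lung cells stood at least 1.60 above subcutaneous cells (2.90 as measured, adjusted p = 0.00142). Id2 read 11.54, 11.27 and 11.55, then 7.07, 8.81 and 8.15, then 8.32, 8.46 and 6.38, and its transplanted groups overlapped (lung minus subcutaneous -0.29). Id1 lay 1.97 below dish culture.

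Of 15 TGF-beta and BMP target genes, 5 lay below dish culture (the 3 Id genes, Smad7 and Bambi) and 1 above (Tgfb1). Over the list, 7 differences were positive and 8 negative (median -0.06). Smad7 (-0.48) and Bambi (-0.33) were below background on all arrays. After quantile normalization or centring, 4 lay below and 0 above, Smad7 and Tgfb1 having left the rule. Snai2 (Slug), a repressor of epithelial genes, read 12.98, 13.05 and 12.44 in dish culture, 10.30, 10.01 and 9.97 under the skin, and 10.12, 10.26 and 10.50 in the lung. The transplanted groups overlapped each other, with lung minus subcutaneous 0.20 (95% interval -0.33 to 0.74). Twist2, of related function, lay below dish culture by 1.19 (difference -1.19). They were the 2 members below among 11 measured genes of the mesenchymal list, which held 1 above (Cd44). Of those 11 genes, 8 had a positive difference and 3 a negative one (median 0.05).

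Gpnmb, a glycoprotein of lysosomes and melanosomes, read 12.81, 12.83 and 12.01 in dish culture, 6.95, 7.48 and 7.49 under the skin, and 7.35, 6.90 and 7.01 in the lung. The transplanted values lay near background at both sites. Mmp3 (stromelysin 1), a matrix protease, read 13.15, 13.21 and 13.01, then 8.91, 9.62 and 10.22, then 7.19, 8.20 and 8.58. Lung values were all below subcutaneous values (lung minus subcutaneous -1.59, adjusted p = 0.0128), a call that was lost without subcutaneous replicate 3 or without lung replicate 1. Mmp9 (1.02) and Adam8 (2.39), further proteases, lay above dish culture. Adam8 exceeded background on 1 of 9 arrays. Mmp9 left the rule under quantile normalization and centring.

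Many genes of DNA replication lay below dish culture. Of 26 measured, 24 had a negative difference, 11 lay below dish culture under the rule and 0 above, with a median of -0.63. Mcm5, a subunit of the replicative helicase, read 14.85, 14.51 and 14.34 in dish culture, 12.32, 12.03 and 12.27 under the skin, and 13.80, 13.75 and 13.42 in the lung. Lung values lay between the other groups and 1.45 above subcutaneous (adjusted p = 0.00173). Mcm10 (-1.63), Cdt1 (-1.15), Mcm3 (-1.01) and Gins2 (-0.57) belong to the same loading and unwinding steps. Prim1 (-1.16) lays down primers, and Rrm1 (-1.23), Rrm2 (-1.11) and Tyms (-0.52) make deoxynucleotides. The cyclins that start S phase, Ccne2 (-1.27) and Ccne1 (-0.85), completed the set.

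Mitotic genes had fewer members. Of 23 measured, 5 lay below dish culture and 0 above (median -0.50), namely the kinases Aurka (-1.91), Cdk1 (-1.04) and Aurkb (-0.76), the kinesin Kif20a (-1.58) and the centromere histone Cenpa (-1.22). Under centring the count was 8. The list medians were -0.14 for lung minus dish and -1.05 for subcutaneous minus dish, and 11 of the 23 genes were called higher in lung. Mki67 went against the list's majority by its values on lung replicates 1 and 2, given above. Of the G1 genes, Ccnd3 (-1.09), Cdk4 (-0.97) and Ccnd2 (-0.90) lay below dish culture, while the CDK inhibitor Cdkn1a (p21) lay above it. Cdkn1a read 12.10, 12.16 and 11.28 in dish culture, 12.79, 13.78 and 12.38 under the skin, and 14.36, 13.77 and 13.95 in the lung. The lowest subcutaneous value was 0.22 above the highest dish value. Of 14 p53 targets, 2 (Cdkn1a and Tnfrsf10b) lay above dish culture and 1 (Trp53inp1) below.

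Of 19 measured genes of amino acid synthesis and uptake in the ATF4 list, 8 lay below dish culture and 0 above (median -0.90). Psat1, of serine synthesis, read 11.87, 11.50 and 11.23 in dish culture, 9.67, 9.62 and 9.56 under the skin, and 10.32, 9.67 and 9.84 in the lung. The highest subcutaneous and the lowest lung value met at 9.67, and the highest transplanted value was 0.91 below the lowest dish value. Phgdh, the step before it, differed by -1.70, the amino acid exchanger chain Slc3a2 by -1.55, Cth, which makes cysteine, by -1.20 and Asns, which makes asparagine, by -1.07. The pseudokinase Trib3 differed by -0.90. Chac1 (-0.96) and Slc7a11 (-1.07), of glutathione breakdown and cystine uptake, were below background on all arrays, and with a filter on dim genes 5 members remained.

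Promoters of 3 of the 7 members of this list with a sequence held the ATF4 element letters TGATGNAA on either strand, against 3.05% of all promoters. They are shown because ATF4 defines the list. The windows lie at chr6:7693210-7693252 (- strand) for Asns, chr2:119351029-119351076 (+ strand) for Chac1 and chr3:50443633-50443680 (- strand) for Slc7a11, in RefSeq sequence of GRCm38.p6. The matches, in capitals, begin 23, 193 and 47 bases before the start, and that of Slc7a11 is 1 of 2 in its promoter.
Asns: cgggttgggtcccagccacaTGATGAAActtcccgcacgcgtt
Chac1: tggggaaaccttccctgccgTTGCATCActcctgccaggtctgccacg
Slc7a11: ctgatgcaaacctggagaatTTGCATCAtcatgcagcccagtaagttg
Over the whole sets, the same letters were found in 2.22% of promoters of genes above dish culture and 2.85% of those below.

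The enzymes that charge tRNAs went the same way. All 18 measured aminoacyl-tRNA synthetases had a negative difference, 7 lay below dish culture and 0 above (median -0.70). These were Wars (-1.48), Farsa (-1.40), Yars (-1.36), Sars (-1.16), Lars (-0.96), Kars (-0.69) and Gars (-0.48). The medians were -0.36 for lung minus dish and -1.12 for subcutaneous minus dish, which share the dish arrays. Wars, Farsa, Yars and Sars were called higher in lung than under the skin, and each of these calls was lost without lung replicate 1. Those of Yars and Sars were lost without subcutaneous replicate 3 or lung replicate 2 as well, that of Yars without subcutaneous replicate 1, and that of Sars without dish replicate 2, subcutaneous replicate 2 or lung replicate 3. Both were also lost under quantile normalization and centring, and that of Sars with a replicate block, with an intensity trend and with RIN as a covariate. Fitted on lung and subcutaneous arrays only, neither was called. Ribosome biogenesis contributed 6 of 21 measured genes below dish culture and 0 above (median -0.38). Its medians were 0.02 for lung minus dish and -0.71 for subcutaneous minus dish, and 12 of the 21 genes were called higher in lung. The 6 members included Rrp9 (-1.70), Nop2 (-1.43) and Dkc1 (-1.33), which process or modify ribosomal RNA. Of 15 cytosolic ribosomal proteins, 1 lay above and 3 below, but 2 and 0 after quantile normalization and 0 and 0 after centring.

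**Figure D4:**
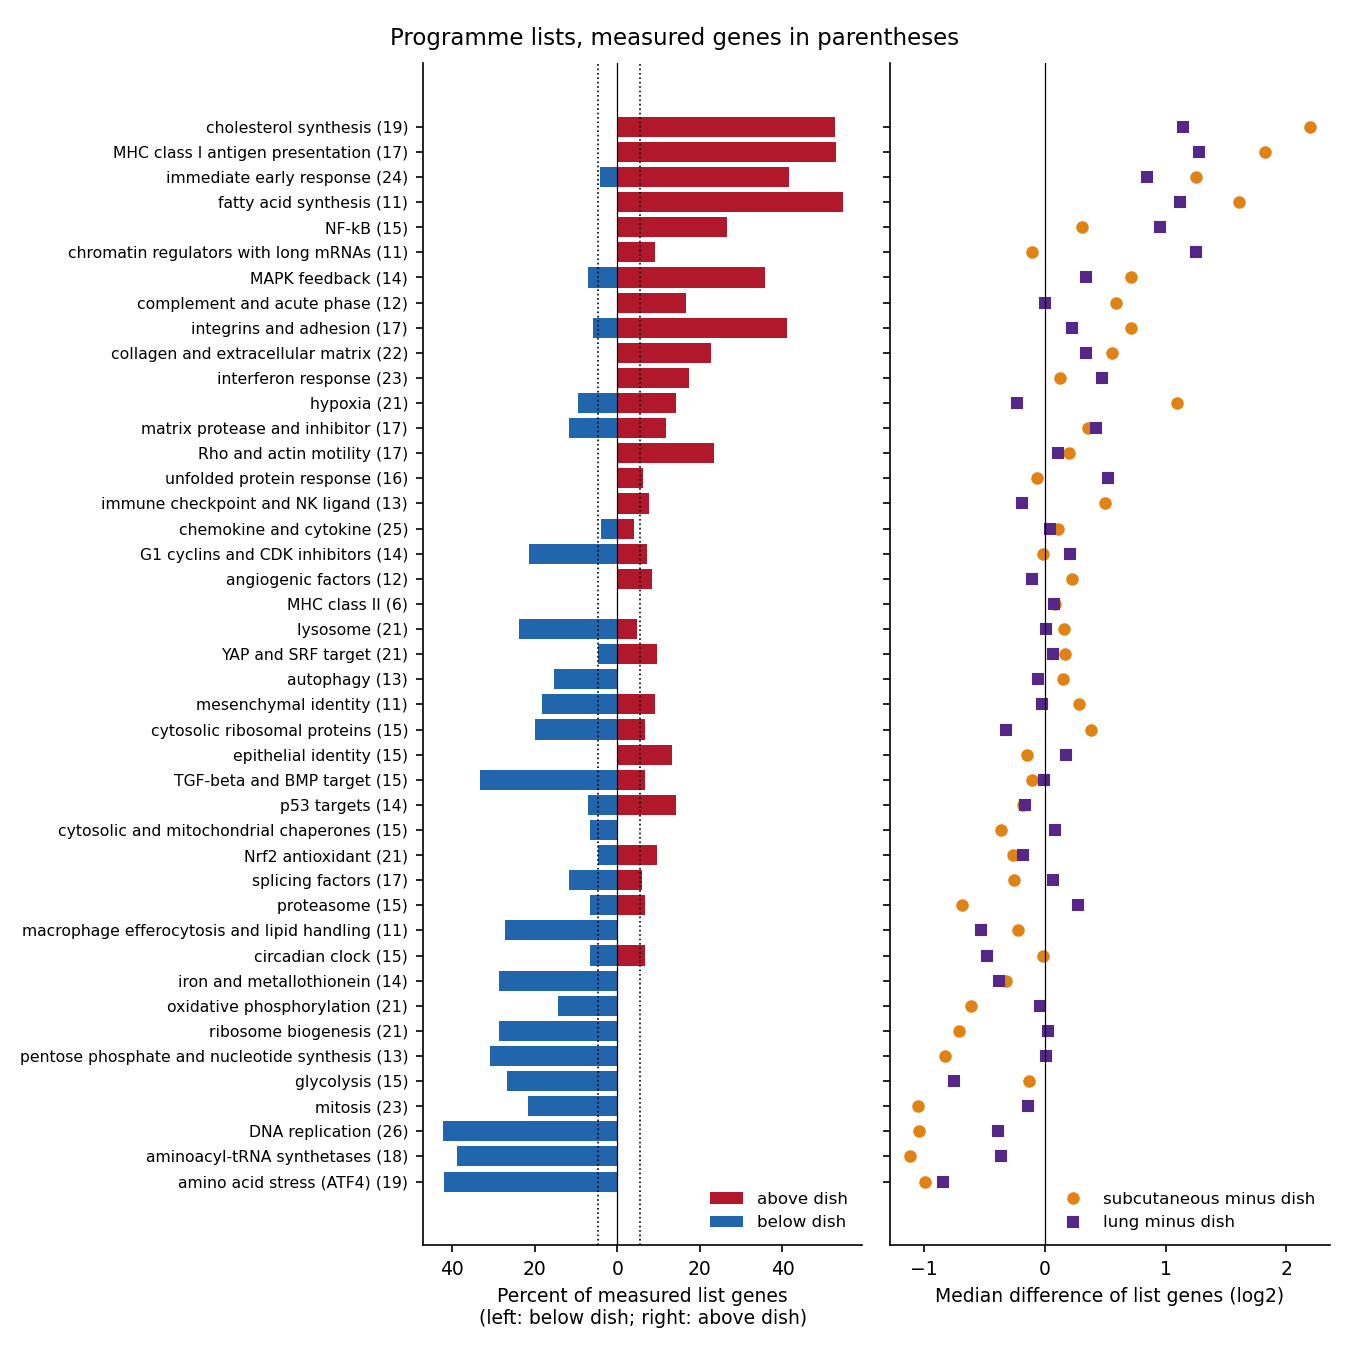
Left, percent of the measured genes of 43 lists above dish culture (red, to the right) or below it (blue, to the left), with dotted lines at 5.47% and 4.72%, the shares over all genes. Among genes over the background guide on at least 3 arrays those shares were 12.3% and 7.86%. Right, median subcutaneous minus dish (orange circles) and lung minus dish (purple squares) log2 differences of the same lists; sterol synthesis (2.19) and tRNA synthetases (-1.12) mark the ends of the subcutaneous medians, and class I (1.28) and ATF4 genes (-0.84) those of the lung medians.

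Metabolic and storage genes held smaller groups. Of 15 glycolysis genes, 4 lay below dish culture and 0 above (median -0.47). They were Tpi1 (-1.19), Ldha (-1.11), which makes lactate, Pfkl (-0.99) and Pgam1 (-0.63). The glycolysis medians were -0.76 for lung minus dish and -0.13 for subcutaneous minus dish. Of 13 pentose phosphate and nucleotide genes, 4 lay below (Dhodh, Ppat, Prps1 and Ctps) and 0 above, with medians of 0.005 and -0.83 in the same order. Of 21 oxidative phosphorylation genes, 3 (14.3%) lay below and 0 above, with medians of -0.04 and -0.61. The share below was 4.72% over all genes and 7.86% among genes over the background guide on at least 3 arrays. The hypoxia list was divided, with 3 of 21 above and 2 below. Its members above were the glucose transporter Slc2a1 (1.15), the repressor Bhlhe40 (1.79, at least 1.14) and Ankrd37 (1.57), and its members below were P4ha2 (-1.75, at least 0.83 lower) and Higd1a (-1.44). Ankrd37 left the rule under both scalings. The median of this list was 1.10 for subcutaneous minus dish and -0.23 for lung minus dish.

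Of 14 genes of iron and metal handling, 4 lay below dish culture and 0 above, with 4 of the 14 differences positive. Tfrc, the transferrin receptor, read 9.59, 9.26 and 9.05 in dish culture, 7.42, 5.42 and 6.17 under the skin, and 7.45, 7.04 and 7.15 in the lung. The ferritin light chain gene Ftl1 read 16.24, 16.40 and 16.44, then 13.51, 14.23 and 13.59, then 15.35, 15.44 and 15.08. It was lowest under the skin (lung minus subcutaneous 1.51, adjusted p = 0.00191). Fth1 (-0.46) and Mt1 (-0.69) were the other members, and Fth1 left the rule under centring. Of 21 lysosome genes, 12 had a positive difference and 9 a negative one (median 0.08). Under the rule, 5 lay below (Gpnmb, Ctsa at -1.18, Atp6v0d1 at -0.84, Scarb2 at -0.56 and Cd63 at -0.55) and 1 above (Ctss). The lipid-binding Fabp5 (-1.95) and the lipid-droplet protein Plin2 (-0.93) lay below as well. Of 21 Nrf2 antioxidant genes, 2 lay above (Cat at 1.28 and Gpx1 at 1.02) and 1 below (Slc7a11), with a median of -0.16.

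Other lists held few members. Over all genes, 5.47% lay above dish culture and 4.72% below. Among genes over the background guide on at least 3 arrays, 12.3% and 7.86% did. In counts above and below dish culture, the unfolded protein response held 1 and 0 of 16, chaperones 0 and 1 of 15, autophagy 0 and 2 of 13, and the circadian clock 1 and 1 of 15. YAP and SRF targets held 2 and 1 of 21, complement and acute phase 2 and 0 of 12, splicing factors 1 and 2 of 17 and proteasome subunits 1 and 1 of 15. Immune checkpoint and NK ligands held 1 and 0 of 13, the 1 being Ulbp1, a ligand of the NK receptor NKG2D (1.67). Among the remaining members with the largest negative differences, Adh7, a retinol dehydrogenase, lay at least 1.28 below dish culture, and Prmt7, an arginine methyltransferase, differed by -2.71.

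Lung and subcutaneous cells were then compared within the members, whose single values the rule had used. Over all genes, 9.21% were higher in lung and 5.79% higher under the skin (limma, adjusted p under 0.05 over 19505 genes). Among the 1067 genes above dish culture, 50 (4.69%) were higher in lung and 136 (12.7%) higher under the skin. Among the 920 genes below, 132 (14.3%) were higher in lung and 13 (1.41%) higher under the skin. Among the 6667 genes over the background guide on at least 3 arrays, 21.3% were higher in lung and 10.2% under the skin, and the members' shares were 4.74% and 15% above and 23.9% and 1.53% below. In both directions, then, the site called farther from dish culture was more often the subcutaneous one. The 95% interval of lung minus subcutaneous lay within 1 log2 unit of 0 for 531 genes above dish culture (49.8%) and 577 below (62.7%). For the other members not called, a difference of that size was not bounded.

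These counts depended on single arrays and on scaling. Without lung replicate 1 they were 25 and 94 above, and 74 and 4 below, in the same order. Without lung replicate 3, 88 genes above dish culture were higher in lung. Without dish replicate 1, 80 were, and the share of genes below dish culture that were higher in lung was 6.93%, against 8.67% over all genes under that setting. After centring, 4.28% of the genes above were higher in lung and 15.3% under the skin, and 10.9% and 2.22% of those below, against 6.54% and 10.5% over all genes. After quantile normalization the shares were 2.93% and 12.4% above, and 12.7% and 2.25% below, against 7.20% and 6.40% over all genes.

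**Figure D5:**
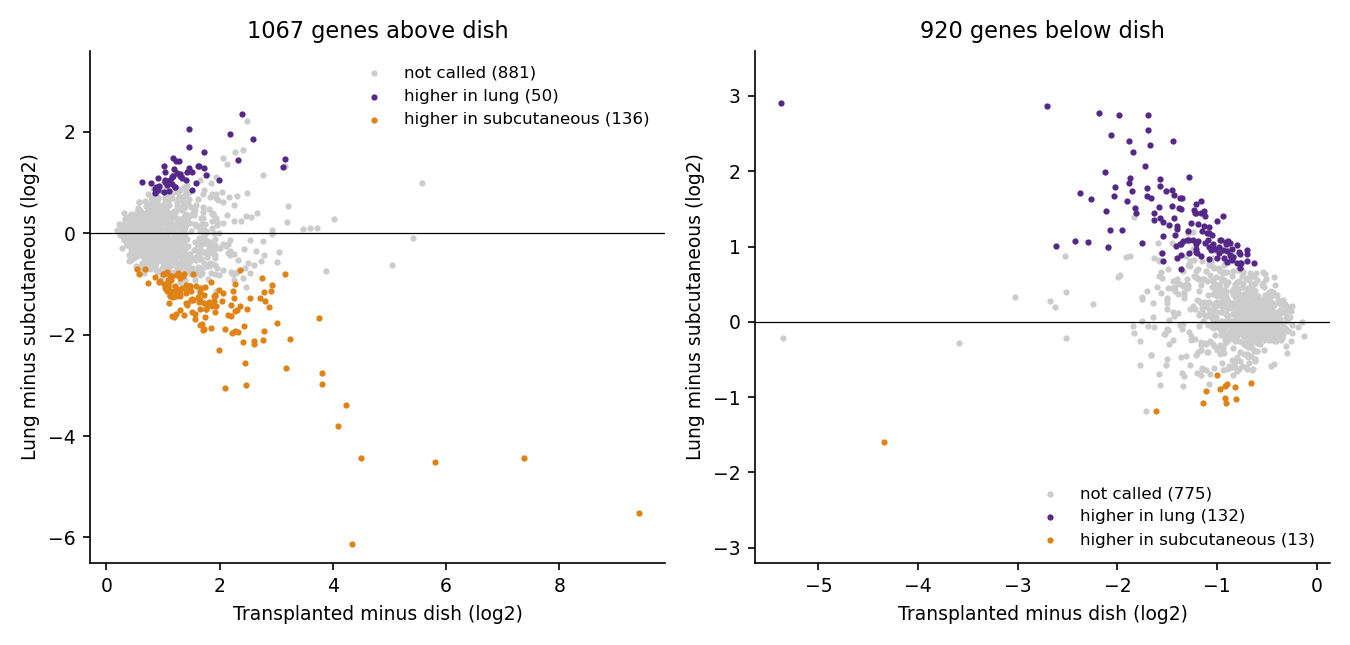
Transplanted minus dish difference (x axis, log2) against lung minus subcutaneous (y axis, log2) for members above (left) and below (right) dish culture, coloured by the limma call at adjusted p under 0.05. Above dish culture 50 genes were higher in lung, 136 higher under the skin and 881 not called; below it 132, 13 and 775.

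Some genes kept a clear place between the sites. Dcn (decorin), a matrix proteoglycan, read 7.32, 6.99 and 6.85 in dish culture, 16.47, 17.09 and 16.37 under the skin, and 13.94, 12.15 and 10.53 in the lung. Lum (lumican), a relative, read 5.61, 5.80 and 5.99, then 13.19, 13.92 and 12.48, then 7.33, 7.51 and 6.38. Lung was below subcutaneous by 4.44 for Dcn (adjusted p = 0.00057) and by 6.12 for Lum (adjusted p = 3.67e-06). Among genes of the other direction, Bcat1, a branched-chain aminotransferase, read 13.68, 13.76 and 13.60, then 11.10, 9.81 and 11.23, then 13.51, 13.05 and 13.22. Lonp1, a mitochondrial protease, read 13.73, 13.22 and 12.82, then 9.73, 10.35 and 8.97, then 12.81, 12.44 and 12.11. The lung values of Bcat1 lay just under the dish values, and its subcutaneous values were the lowest of the 3 groups without overlap.

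Markers of other cell types were read on the same arrays. Of 13 measured fibroblast markers, 3 lay above dish culture (Dcn, Lum and Cd34) and 8 were never above background, Col1a1 and Col3a1 among them. Their mean log2 signal ran from 5.31 to 5.59 in dish culture, 7.02 to 7.54 under the skin and 5.75 to 6.19 in the lung, but this mean includes Dcn, Lum and Cd34 themselves. Over the other 10 markers it ran from 4.81 to 5.11, from 4.94 to 5.69 and from 4.87 to 4.95, in the same order of groups. The part of fibroblast RNA in the results for Dcn and Lum was not tested. Alveolar type II markers averaged 5.49 to 5.80 in dish culture, 5.55 to 5.79 under the skin and 7.49 to 8.93 in the lung, and 1 of 10 (Abca3) lay above dish culture under the rule, though not under either scaling. Airway markers reached 8.21 on 1 lung array, and 0 of 10 met the rule. Macrophage and monocyte markers averaged 4.76 to 5.05 in dish culture, 4.89 to 5.04 under the skin and 4.80 to 5.48 in the lung, with 14 of 17 never above background, Ptprc and Csf1r included, and 1 (C1qb) above dish culture under the rule. Endothelial markers averaged 4.22 to 4.39, 4.23 to 4.83 and 4.43 to 5.0, with 10 of 11 never above background and 2 (Cdh5 and Plvap) above dish culture under the rule. C1qb and Cdh5 left the rule under centring, and Plvap under both scalings. Of 6 alveolar type I markers, 1 (Pdpn) lay above. Vim and Cdh2, genes of the mesenchymal list, were above background on all 9 arrays. Lists for neutrophils, T and NK cells, B cells, dendritic cells, keratinocytes, smooth muscle, adipocytes and red cells held 0 members. Mesothelial markers held 2 above of 6 (Msln and Bnc1, the first leaving the rule under centring and the second under both scalings) and skeletal muscle 2 above and 1 below of 9.

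Promoter composition and gene order were not used by the rule, and they are given without a test. Among the 855 genes above dish culture with a promoter sequence the median GC content was 60.4%, among the 738 below 57.2%, and over all 15691 genes 56.0%. The median count of CpG pairs was 16, 13 and 10. Of all 19505 genes, 12062 never exceeded the background guide, against 179 of the 1067 above and 359 of the 920 below. The part of detection in these medians was not tested. CCAAT letters were found in 33.6% of promoters above, 39.6% of those below and 36.0% of all, shares that lie near each other. E2F letters TTTGGCG, on either strand, were found in 1.75% above, 2.30% below and 1.63% of all, Mcm5 among them. AP-1 letters TGACTCA were found in 4.33% above, 4.20% below and 4.02% of all. They were found in 0 of the 8 immediate early members with a promoter sequence. In RefSeq gene order of GRCm38.p6, the next measured gene lay above dish culture for 86 of 1063 genes above (8.09%), and below it for 59 of 920 genes below (6.41%). The shares over all genes were 5.47% and 4.72%, and 12.3% and 7.86% among genes over the background guide on at least 3 arrays. Neighbours in the same direction include near-identical copies such as Ly6c1 and Ly6c2.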

How the data were processed

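RNA of 9 samples was measured on 1-colour whole-transcript arrays, 3 arrays per group, and groups were taken from sample titles. The authors deposited 1 table of log2 signals, 28846 rows by 9 arrays, normalized by a method, with software and for a genome build that the sources used here do not give, so signals may carry differences in scaling. The values were used as deposited, with no filter. Platform annotation gave 19572 features a symbol, and 55 symbols with several features were reduced to the feature with the highest mean, leaving 19505 genes. RefSeq tables of GRCm38.p6 supplied gene order and promoter sequences.

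The non-overlap rule was applied to all genes. Lung minus subcutaneous was fitted under R 4.3.3 with the lmFit and eBayes functions of limma 3.58.1 (3 group means, all 9 arrays), two-sided, Benjamini-Hochberg adjusted over 19505 genes and called at 0.05; the fit was tested on simulated data. Bounds ("at least") use the 90th percentile of 5222 negative controls. The number of arrays limits precision.

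The members and the 43 programme and 16 marker lists (842 of 931 genes measured) were chosen with earlier results of these data known. Named genes were the 12 largest differences in each direction, up to 4 members per list and list genes at least 1 against the majority, the 8 highest and 8 lowest site differences called, and the 2 genes either side of the rule's edge. Other members of lists, and genes said to be chosen after their values were seen, were added. Alternatives were quantile normalization, centring, a dim-gene filter, the mean of features, a replicate block, trend, array weights, RIN, lung and subcutaneous arrays only, stricter gaps and leaving out each array.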

Additional observations from a re-analysis of the deposited data

Results flagged for a closer look

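The 16 genes here met the rule against dish culture and had the largest called differences between the lung and subcutaneous groups, by limma over all genes, among members bright on every array of the higher site. They stand out because both groups lie on one side of dish culture while the difference between them is itself past the threshold.

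Higher in lung, all below dish culture, were Id3 by 2.902, Prmt7 by 2.871, Lonp1 by 2.772, Lats2 by 2.751, Nme6 by 2.75, Bcat1 by 2.551, Wdr18 by 2.485 and Faap24 by 2.406 on the log2 scale. Prmt7 modifies arginines, Lonp1 degrades mitochondrial proteins, Lats2 is a Hippo pathway kinase and Faap24 takes part in repair of DNA crosslinks. Lats2 was below background on all 3 subcutaneous arrays, and its difference is at least 0.13. Faap24 read 11.31, 11.39 and 11.37 in dish culture, 8.77, 8.66 and 8.69 under the skin, and 11.28, 11.04 and 11.02 in the lung, so its lung values lay just under dish culture.

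Lower in lung, all above dish culture, were Lum (-6.122), Ly6c1 (-5.523), Ly6c2 (-4.52), Dcn (-4.438), Dkk2 (-4.425), Gstt1 (-3.8), Slc14a1 (-3.388) and Chst1 (-3.054). Dkk2 is a secreted regulator of Wnt signals, Gstt1 a glutathione transferase and Chst1 a sulfotransferase. Gstt1 read 5.48, 5.07 and 5.04 in dish culture, 11.12, 11.16 and 11.30 under the skin, and 6.07, 6.89 and 9.22 in the lung. Its subcutaneous values were close together, and lung replicate 3 lay far above the other lung arrays. Chst1 was below background on every lung and dish array, its site difference is at least 1.20, and it left the rule under centring.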

How the results depend on the processing

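The site calls of the 16 genes with the largest site differences kept direction and side of the threshold in all 144 values from other settings and all 144 from leaving out 1 array. These genes were picked by those same differences, so their stability does not speak for other members. Among other called members, Fdft1 and B2m lost the call in 0 settings, Dhcr7 in 10 and Sars in 12. With a replicate block the site counts were 47 and 124 (above dish culture, higher in lung and under the skin) and 125 and 11 (below). Deviations of same-numbered arrays correlated at -0.08 to 0.07 and those of other numbers at -0.13 to 0.09. Same-numbered arrays were thus no more alike than the others. With so few arrays per group, these correlations cannot decide whether same-numbered samples were paired, and the labels do not state it.

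Genes above dish culture numbered 404 where each group mean differed by at least 1 and 102 with a gap of at least 1. Genes below numbered 136 and 24, and 524 with the dim-gene filter. Genes above and higher in lung (50) numbered 88 with array weights, 33 centred and 28 quantile-normalized. Genes below and higher under the skin (13) numbered 28 centred, 25 quantile-normalized and 8 with lung and subcutaneous arrays only. The cause was not tested.

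Leaving out 1 array gave 1179 to 1662 genes above and 1085 to 1862 below, since fewer values must be separated. Site counts ran from 25 to 88 and 94 to 185 above, and 74 to 165 and 4 to 20 below. The extremes came without dish replicate 1 (1662, 1862, 185 and 20), lung replicate 1 (25, 94, 74 and 4), lung replicate 3 (88) and dish replicate 3 (165). The lowest member counts came without subcutaneous replicate 2 (1179 above) and without lung replicate 2 (1085 below). Without dish replicate 3, 1479 genes lay below, which is within the range. Genes below and higher under the skin numbered 5 without lung replicate 2, 7 without subcutaneous replicate 1 and 6 without subcutaneous replicate 2.

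For lists, leaving out arrays other than lung replicate 3, centring and feature means were chosen after seeing the data. Many members lie near background, where differences are understated.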

Other observations

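A run of 5 consecutive measured genes in RefSeq order, holding the subunits of several interferon-type receptors, lay above dish culture. They are Ifnar2, Il10rb, Ifnar1, Ifngr2 and Tmem50b, and they were chosen after their values were seen. Ifnar2, the binding chain of the type I interferon receptor, read 11.37, 10.85 and 11.43 in dish culture, 12.12, 12.67 and 12.10 under the skin, and 12.31, 11.78 and 12.05 in the lung. Ifnar1, its partner, read 6.49, 5.39 and 6.45, then 7.80, 8.19 and 7.91, then 8.04, 7.48 and 7.92, at least 0.47 above dish culture. Il10rb, shared by the receptors for IL-10 and type III interferons, was higher by 1.34. Ifngr2, a chain of the interferon gamma receptor, was higher by 0.98 and Tmem50b by 1.13. Lung minus subcutaneous was between -0.26 and 0.37 and not called for the 4 receptor genes, while Tmem50b was lower in lung (-1.22, adjusted p = 0.00637) and left the rule under quantile normalization and centring. Ifngr1, the ligand-binding chain of the same interferon gamma receptor, overlapped dish culture (-0.12) and was below background on all arrays.

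Peptidylarginine deiminases, enzymes that turn arginine into citrulline in proteins, were a further family, also chosen after the values were seen. Padi4 read 9.55, 9.39 and 9.73 in dish culture, 12.78, 12.51 and 13.45 under the skin, and 11.35, 11.72 and 11.86 in the lung. The groups did not overlap, and lung was lower than subcutaneous (-1.27, adjusted p = 0.00863), a call that was lost without lung replicate 1. Padi2 stood 2.77 above dish culture as measured (at least 0.24) and left the rule under centring, and Padi1 (1.12) was below background on all arrays. Efna1, an ephrin ligand, was higher by 3.02 and also lower in lung (-1.77). The receptor-like Gpr137b (2.75) and Gpr137b-ps (2.91) are near-identical copies, so their signals cannot be assigned to either. Below dish culture, Nme1 and Nme2, neighbouring nucleoside diphosphate kinase genes, differed by -1.12 and -0.43. Nme1 read 16.64, 16.65 and 16.57 in dish culture, 14.77, 14.86 and 14.76 under the skin, and 16.21, 16.12 and 16.27 in the lung. Its lung minus subcutaneous difference was 1.40 (adjusted p = 0.0010), against -0.22 for Nme2, which left the rule under quantile normalization.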
